A study of Mus musculus with 15 samples.

Results

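The genes described here encode the Rab GTPases and the vacuolar protein sorting (Vps) proteins, the core machinery that routes membrane vesicles between the compartments of the cell. They were taken by name, as every gene whose symbol starts with Rab or Vps followed by a digit, which gave 85 of the 14392 genes in the expression table. Of these, 57 carry a Rab name and 28 a Vps name. The Rab-named genes comprise 47 genes of Rab GTPases, the entry Rab42-ps and 9 genes of Rab partners that are not GTPases themselves, such as the Rab3gap and Rab11fip genes. One Vps-named gene, Vps72, encodes a subunit of a chromatin remodeller and shares only the name. Expression was measured by Smart-seq2 RNA sequencing in zygotes and 2-cell embryos, with 2 libraries per group of 10 embryos each. WT embryos came from Usp16+/+ females. cKO embryos came from Usp16 fl/fl;Gdf9-Cre females, in which Cre under the Gdf9 promoter removes Usp16 in the oocyte from the primordial follicle stage onwards. All females were C57BL/6, 21 to 23 days old and superovulated, and all were mated with WT males, so that cKO embryos lacked maternal Usp16 but inherited an intact paternal allele. The comparison asked how the embryo's stock of transcripts changes when the oocyte lacks USP16, an enzyme that takes ubiquitin off histone H2A. Recombination of the floxed allele leaves an in-frame deletion, so that reads from the exons outside it could still count towards Usp16, which was not tested.

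Rab proteins are small GTPases that act as switches. In the GTP-bound state each sits on a particular membrane and recruits the tethers, motors and fusion factors of that compartment, and exchange factors and GTPase-activating proteins turn it on and off. Vps proteins, first found in yeast mutants that missort vacuolar enzymes, build the complexes that act beside them. Retromer carries receptors from endosomes back to the Golgi or the plasma membrane, HOPS and CORVET tether endosomes and lysosomes, ESCRT complexes bud vesicles into multivesicular bodies, and GARP tethers vesicles at the Golgi. The mammalian embryo starts from transcripts and proteins stored in the oocyte, degrades much of this store, and switches on its own genome, in the mouse mainly at the 2-cell stage.

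Values are FPKM, in which sequenced fragments are scaled by the length of the exons and by the size of the library. The authors had set every value under 1 to 1, and this floor is called the floor below. A fold against a group at the floor is therefore a lower bound. The table holds no read counts, and the depth of the libraries is unknown. Differences were tested with limma on log2(FPKM + 1) in 1 model of all 8 libraries, adjusted over all 14392 genes, and a gene was called at an adjusted p under 0.05. Log2 differences are on this scale, which understates the change of genes near the floor, and are given with their standard error (SE). The smallest two-sided p that an exact permutation test allows with 2 libraries in each group is 0.333. Nothing states that the replicates came from separate females, so the p-values measure only the spread between these libraries, which may be technical. Usp16 itself stood at 184 and 187 FPKM in WT zygotes and at 16.8 and 21.99 in cKO zygotes. In 2-cell embryos it stood at 168 and 183 FPKM in WT and at 168 and 84.8 in cKO. Summed FPKM was 547752 to 593317 in 7 libraries and 770989 in cKO 2-cell replicate 2, which stood apart. In such pools of embryos, fewer cells expressing a gene and less of its RNA per cell cannot be told apart.

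In zygotes, the most abundant of the 85 transcripts were those of 3 Rab genes. Rab7, which directs late endosomes to lysosomes, stood at 504 and 354 FPKM in WT zygotes. Rab11a, the Rab of recycling endosomes, stood at 271 and 256 FPKM, and Rab14, which acts between the Golgi and endosomes, at 239 and 275 FPKM. The next most abundant were the retromer genes Vps26a, at 131 and 137 FPKM, and Vps29, at 130 and 105 FPKM, followed by Rab38, Vps72 and Rab2a. These 3 Rab genes also led in cKO zygotes. The median of the 85 genes was 6.40 FPKM in WT zygotes and 6.63 FPKM in cKO zygotes, and 14 genes lay at the floor in both WT libraries. The 12 genes at the floor in all 4 zygote libraries were Rab15, Rab19, Rab30, Rab33a, Rab34, Rab39, Rab40b, Rab40c, Rab42-ps, Rab43, Vps18 and Vps33a.

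No Rab or Vps gene passed the test between cKO and WT zygotes. Over all genes 0.0% were called lower and 0.0208% higher in this comparison. At an unadjusted p under 0.05 limma gave 1 member, Rab31, a Rab of traffic between the Golgi and endosomes, which stood at 2.02 and 1.80 FPKM in WT and at 4.07 and 4.69 FPKM in cKO zygotes. Its log2 difference was 0.88 ± 0.35 (SE) with an adjusted p of 1. Fitting only the 4 zygote libraries gave 0 called members, and before adjustment 1 lower and 3 higher had a p under 0.05. Weighting the groups by their spread gave 0, with 2 lower and 4 higher before adjustment. No member differed by more than 3-fold between the group means, against 0.0486% of all genes lower and 0.104% higher by this rule. The groups did not overlap for 10 members lower and 8 higher in cKO, where 10.2% and 15.8% of all genes lay so. Beside Rab31, the members with the greatest differences among these were Rab8a and Vps13a on the higher side and Vps72, Rab9 and Vps45 on the lower side, with log2 differences of 0.38, 0.38, -0.46, -0.42 and -0.30.

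Between the zygote and the 2-cell stage of WT embryos, limma called 20 of the 85 genes lower (23.5%) and 25 higher (29.4%), where 15.5% of all genes were called lower and 34.2% higher. By the 3-fold rule on group means 21 members were higher, against 26.0% of all genes. The libraries of the stages did not overlap for 31 members lower and 36 higher, where 26.4% and 49.4% of all genes lay so. The count of lower members was 10 without WT zygote replicate 1, and 13 and 12 without WT 2-cell replicates 1 and 2. The greatest change was that of Rab20, a Rab linked to phagosome maturation, on chromosome 8 (mm9, 11453392 to 11478638). Rab20 was at the floor of 1 in both WT zygote libraries and stood at 282 and 245 FPKM in WT 2-cell embryos. It was thus the most abundant of the 85 genes at that stage, at least 263-fold higher than in zygotes (log2 difference 7.04 ± 0.31, adjusted p = 8.65e-05). Rab7l1, also named Rab29, a Golgi and lysosome Rab that binds the kinase LRRK2, stood at 5.15 and 3.05 FPKM in WT zygotes and at 174 and 129 FPKM in WT 2-cell embryos. The groups were far apart, with a log2 difference of 4.91 ± 0.37 (adjusted p = 0.000213). Rab34, which acts in lysosome positioning and cilia, was at the floor in both zygote libraries and stood at 58.0 and 41.1 FPKM in 2-cell embryos, at least 49.6-fold higher. Rab19, Rab39 and Rab40c, the last a Rab with a SOCS box that joins a ubiquitin ligase, also left the floor. Rab19 reached 19.96 and 18.2 FPKM, Rab39 15.0 and 29.8 FPKM, and Rab40c 24.3 and 21.1 FPKM. Of the 10 Rab GTPases with no assigned compartment and Rab42-ps, 9 of 11 rose in WT embryos and 0 fell. Rab15, Rab19, Rab20, Rab34, Rab39, Rab40b, Rab40c and Rab42-ps already had the lowest possible value in WT zygotes and so could not fall. Rab24 and Rab28 lay just above it, which left Rab23, at 5.74 and 7.87 FPKM, with room for a clear fall. Only genes above 1 in some library were kept, so a gene at 1 in all zygotes exceeds 1 in some 2-cell library. The 0 was thus largely set by the floor, and the filter favoured the rises.

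The promoters of genes that move in these embryos are shown so that what lies at their start can be read beside the levels. Each runs from 250 bases before to 50 bases after the RefSeq transcription start on GRCm38.p6, and capitals mark every match, on either strand, to one of 4 motifs. They are the GC box GGGCGG, the CCAAT box, the TATA box TATAAA, and the E-box TCACGTG of the kind bound by the lysosomal regulators TFEB and TFE3. Rab20 and Rab5a stand for genes that left the zygote level upwards in both genotypes, at chr8:11478591-11478890 on the minus strand and chr17:53478984-53479283 on the plus strand. Rab7l1 stands for a gene that rose in WT and was lower in cKO 2-cell embryos, at chr1:131867027-131867326 on the plus strand, and Rab11a for an abundant zygote transcript that fell, at chr9:64737707-64738006 on the minus strand.
Rab20: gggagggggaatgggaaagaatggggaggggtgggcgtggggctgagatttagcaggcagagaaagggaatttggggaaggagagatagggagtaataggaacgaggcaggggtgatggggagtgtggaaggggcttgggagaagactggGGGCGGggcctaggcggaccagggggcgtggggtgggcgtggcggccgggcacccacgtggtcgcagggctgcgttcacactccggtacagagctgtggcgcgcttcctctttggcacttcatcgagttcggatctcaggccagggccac
Rab5a: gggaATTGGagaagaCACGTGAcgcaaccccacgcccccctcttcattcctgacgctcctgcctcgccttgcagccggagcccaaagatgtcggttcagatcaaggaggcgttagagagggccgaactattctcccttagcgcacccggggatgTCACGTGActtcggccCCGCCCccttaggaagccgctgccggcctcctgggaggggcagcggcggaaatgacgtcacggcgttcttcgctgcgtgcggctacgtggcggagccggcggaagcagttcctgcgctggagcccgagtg
Rab7l1: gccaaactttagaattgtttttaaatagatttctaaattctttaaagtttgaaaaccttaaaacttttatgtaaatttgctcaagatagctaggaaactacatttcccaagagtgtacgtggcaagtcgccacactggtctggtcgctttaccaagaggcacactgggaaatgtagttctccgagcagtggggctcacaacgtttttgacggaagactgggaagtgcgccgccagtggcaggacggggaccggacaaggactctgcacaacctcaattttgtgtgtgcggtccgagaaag
Rab11a: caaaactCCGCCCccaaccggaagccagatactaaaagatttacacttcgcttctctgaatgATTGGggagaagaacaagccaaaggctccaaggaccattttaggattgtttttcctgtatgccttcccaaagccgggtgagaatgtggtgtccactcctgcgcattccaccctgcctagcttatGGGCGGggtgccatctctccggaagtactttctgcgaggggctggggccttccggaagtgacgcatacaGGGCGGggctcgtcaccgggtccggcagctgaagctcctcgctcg
The Rab20 window holds 1 match, a GGGCGG, and the Rab7l1 window holds none of the motifs. The Rab5a window holds TCACGTG at bases 16 to 22 and again, overlapping on both strands, at bases 155 to 162. A promoter was found for 68 of the 85 genes. TCACGTG occurred in 9 of these 68 windows, or 13.2%, compared with 5.78% of 10168 windows of genes in the expression table and 3.84% of all 27025 windows. The 9 genes were Rab21, Rab23, Rab24, Rab3gap2, Rab3il1, Rab5a, Vps16, Vps26a and Vps33a. GGGCGG occurred in 73.5% of the members' windows and 59.2% of those of genes in the table, CCAAT in 39.7% and 39.6%, and TATAAA in 8.82% and 8.50%. The median number of CG dinucleotides was 22 in the members' windows and 19 in those of genes in the table. These shares describe letters in a fixed window and were not tested.

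In 4 of the pairs of sister genes compared here, one sister fell and the other rose in WT embryos. In 1 of these 4, Rab1 and Rab1b, the order of the levels turned. Rab1 and Rab1b encode near-identical GTPases of transport from the endoplasmic reticulum to the Golgi. In WT zygotes Rab1 stood at 6.81 and 4.95 FPKM and Rab1b at 54.7 and 29.8 FPKM. In WT 2-cell embryos Rab1 stood at 82.9 and 84.1 FPKM and Rab1b at 12.7 and 10.1 FPKM. Rab1 rose (log2 difference 3.63 ± 0.33, adjusted p = 0.000372) and Rab1b fell (-1.75 ± 0.50, adjusted p = 0.0275), so that the ratio of Rab1 to Rab1b went from 0.124 and 0.166 to 6.52 and 8.35. The sisters Rab2a and Rab2b act at the same border. Rab2a stood at 112 and 100 FPKM in WT zygotes and at 32.4 and 45.7 FPKM in WT 2-cell embryos, while Rab2b stood at 2.81 and 2.99 and then at 28.3 and 32.6 FPKM. Rab2a fell by 1.44 ± 0.22 on the log2 scale and Rab2b rose by 3.01 ± 0.21, and their libraries did not overlap between the stages, although Rab2b stayed below Rab2a, at 0.874 and 0.713 of its level. In the retromer, Vps26a fell by 0.97 ± 0.27 and its sister Vps26b rose by 1.08 ± 0.19, although Vps26a remained the more abundant, with Vps26b at 0.0605 to 0.0769 of its level. Rab11a fell by 0.92 ± 0.16 as Rab11b rose by 1.74 ± 0.58 (adjusted p = 0.0468), and Rab11b stayed at 0.0546 and 0.0980 of the level of Rab11a. The call of Rab11b was lost in 11 of 17 alternatives, with an adjusted p of up to 0.246, and those of Vps26a and Rab1b in 6 and 5. In cKO 2-cell embryos the ratio of Rab1 to Rab1b was 14.2 and 22.8, against 0.159 and 0.178 in cKO zygotes, and the ratio of Rab2b to Rab2a was 1.05 and 0.952. The pairs were picked after their values were seen, and the ratios are given as a description. They are not a full list, as Vps37c also fell and its sister Vps37b rose in WT embryos. Vps37c went from 4.81 and 3.16 FPKM to 1.79 and 1 FPKM, and Vps37b from 6.99 and 5.82 FPKM to 11.6 and 12.2 FPKM.

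**Figure D1:**
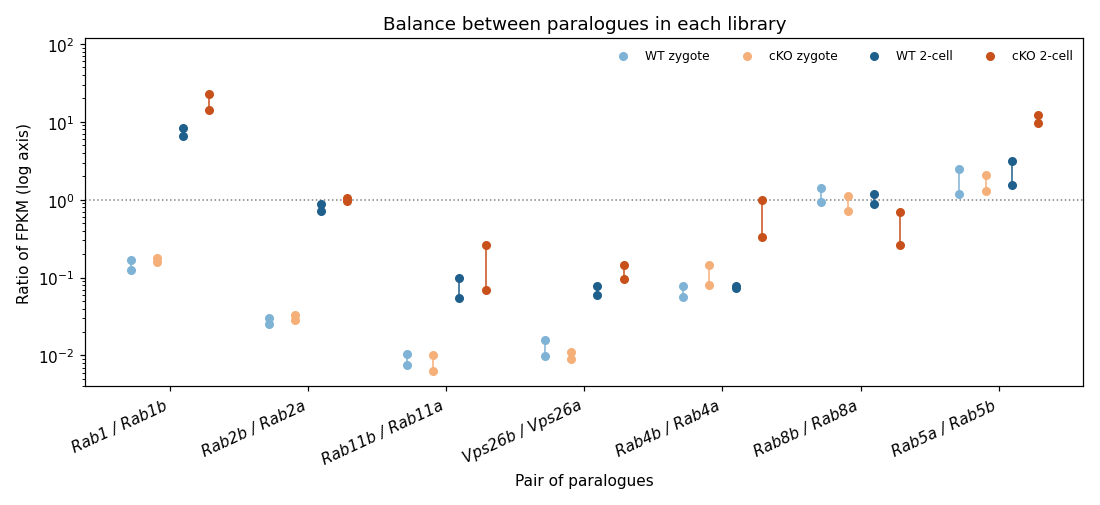
Ratio of the FPKM of 7 pairs of sister genes (vertical axis, logarithmic) in each library, coloured by group, with a line joining the 2 libraries of a group. The Rab1 to Rab1b ratio lies below 1 in all 4 zygote libraries and between 6.52 and 22.8 in all 4 2-cell libraries. In cKO 2-cell replicate 2 Rab4b and Rab4a both lie at the floor, so their ratio of 1 there does not order them.

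Both genes with the greatest falls in WT embryos encode regulators of Rabs. Rab3gap1 and Rab3gap2 encode the subunits of a complex that inactivates Rab3 and activates Rab18. Rab3gap1 stood at 48.1 and 52.0 FPKM in WT zygotes and at 3.16 and 4.33 FPKM in WT 2-cell embryos, a fall of 3.44 ± 0.21 on the log2 scale (adjusted p = 0.000138). Rab3gap2 fell by 2.08 ± 0.26. In 28.4% of its 50-base stretches Rab3gap2 shares sequence with transcripts of Iars2, so its level is less certain. The other members with the greatest falls were Vps72 (-1.97), Rab32 (-1.93), Rab3b (-1.88), Vps39 (-1.80), Rab1b and Vps25 (-1.49), of which Vps25 shares 59.2% of its stretches with Ramp2. Among the 28 Vps genes, 10 fell and 5 rose in WT embryos, and among the 47 Rab GTPase genes 8 fell and 17 rose. These are 35.7% and 17.9% of the Vps genes and 17.0% and 36.2% of the Rab GTPase genes, the latter near the 15.5% and 34.2% of all genes. The difference between the families was not tested. The median log2 difference was -0.42 for the Vps genes and 0.22 for the Rab GTPase genes, beside 0.27 over all genes, and dividing each library by its median ratio to the average library turned these medians to -0.60, 0 and 0.03.

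**Figure D2:**
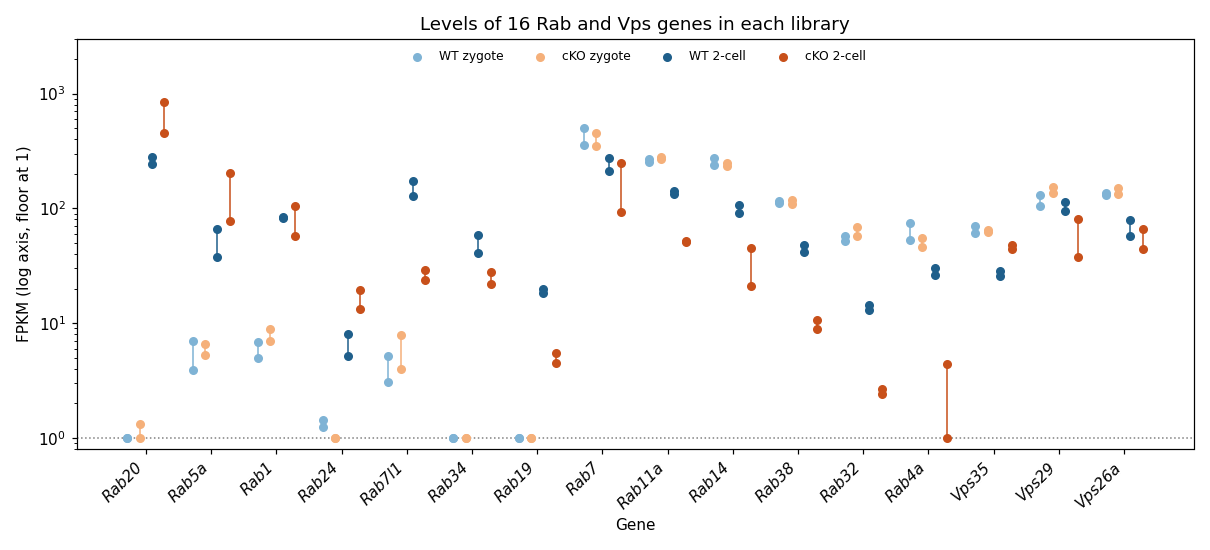
FPKM of 16 Rab and Vps genes (vertical axis, logarithmic, dotted line at the floor of 1) in each of the 8 libraries, coloured by group, with a line joining the 2 libraries of a group. Rab20 climbs from the floor to between 245 and 843 FPKM, while all WT 2-cell values of Rab38, Rab32 and Rab4a lie below the zygote values and all cKO 2-cell values lie lower still.

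At the 2-cell stage, 21 of the 85 genes were called lower and 3 higher in cKO than in WT embryos. Over all genes 24.6% were called lower and 6.16% higher. The share of members called lower was 24.7%, close to that background, but the calls lay mostly within the Rab GTPases: 19 of 47 Rab GTPase genes were called lower, or 40.4%, 2 were called higher, and their median log2 difference was -0.89, beside -0.30 over all genes. Of the 28 Vps genes 1 was called lower and 1 higher, with a median of -0.23. The difference between the families was not tested. With the libraries divided by their median ratio, the medians moved to -0.45 for the Rab GTPase genes, 0.08 for the Vps genes and 0 for all genes, so that the Vps median changed sign, and with libraries set to an equal sum they were -1.12, -0.33 and -0.43. For genes above the floor in these 4 libraries the median over all genes was -0.33 without scaling, 0.08 with median-ratio scaling and -0.54 with sum scaling. The share of lower among the members' calls was 87.5% without scaling, 70.0% with median ratios (14 lower, 6 higher) and 96.0% with equal sums (24 lower, 1 higher). By the 3-fold rule 12 members were lower and 0 higher, where 13.5% and 2.84% of all genes were. The libraries of the groups did not overlap for 43 members lower and 9 higher, where 43.4% and 14.0% of all genes lay so.

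These calls rest on a spread shared between groups that were not equally spread. Between the replicates of cKO 2-cell embryos 15 of the 85 genes (17.6%) differed by more than 3-fold, compared with 13.3% of all genes, while 1 gene, Rab13, did so in WT 2-cell embryos and 0 in zygotes. Replicate 2 was the lower of the pair for 60 of the 85 genes, a count that was not made over all genes. Its median ratio to the average library, over genes above the floor in every library, was 0.794, against 0.988 in replicate 1. A lower replicate 2 is thus not particular to the members. With the groups weighted by their own spread, 6 members were called lower (Rab4a, Rab11a, Rab19, Rab22a, Rab32 and Rab38) and 0 higher, with 5.93% of all genes lower and 0.834% higher. With only the 4 2-cell libraries in the fit, no member and no gene at all was called. Without cKO 2-cell replicate 2 the counts were 24 lower and 7 higher, without cKO 2-cell replicate 1 they were 38 and 6, and without WT 2-cell replicate 2 they were 13 and 3. Without WT 2-cell replicate 1 or any one of the zygote libraries, 0 or 1 members were called higher.

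Markers of the stages moved in the same libraries. The 8 transcripts of oocyte and zygote genes, all in the table, summed to 4816 to 5935 FPKM in WT and 1066 to 2551 FPKM in cKO 2-cell embryos, and the 5 transcripts of 2-cell genes, such as Zfp352 and Zscan4d, to 459 to 680 and 166 to 178 FPKM. In zygotes these sums were 9836 to 10836 FPKM for the oocyte list and 6.45 to 9.99 FPKM for the 2-cell list, across both genotypes. None of these genes lay at the floor in both libraries of a 2-cell group. Of 10 cumulus and granulosa cell markers 3 were in the table, with sums of 4.38 to 10.3 FPKM in WT and 3 to 3.32 FPKM in cKO 2-cell embryos, and Foxl2 and Cyp19a1 lay at the floor in both cKO libraries. Of 6 sperm markers 4 were in the table, with sums of 7.28 to 11.4 FPKM in WT and 4 to 4.97 FPKM in cKO 2-cell embryos. Prm1, Prm2 and Odf1 lay at the floor in both cKO libraries. The sums of both lists were higher in zygotes of either genotype. There the cumulus and granulosa sums were 24.3 to 28.7 FPKM, mostly from Cyp19a1, and the sperm sums 16.5 to 23.1 FPKM, mostly from Prm2. Other markers went the other way. Foxl2, Tnfaip6, Prm1 and Tnp1 lay at the floor in every zygote library and above it in WT 2-cell embryos. Tnfaip6 stood there at 1.83 and 7.45 FPKM and Tnp1 at 4.28 and 5.69 FPKM, while Prm1 left the floor in replicate 2 only. The oocyte list did not move as one: Oosp1, which made up most of the sum, stood at 4936 and 3711 FPKM in WT and at 544 and 1876 FPKM in cKO 2-cell embryos, while Zp3 was higher in both cKO libraries (115 and 70.9 against 116 and 149 FPKM) and Gdf9 and Mos overlapped. The part of these shifts in the Rab and Vps differences was not tested.

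**Figure D3:**
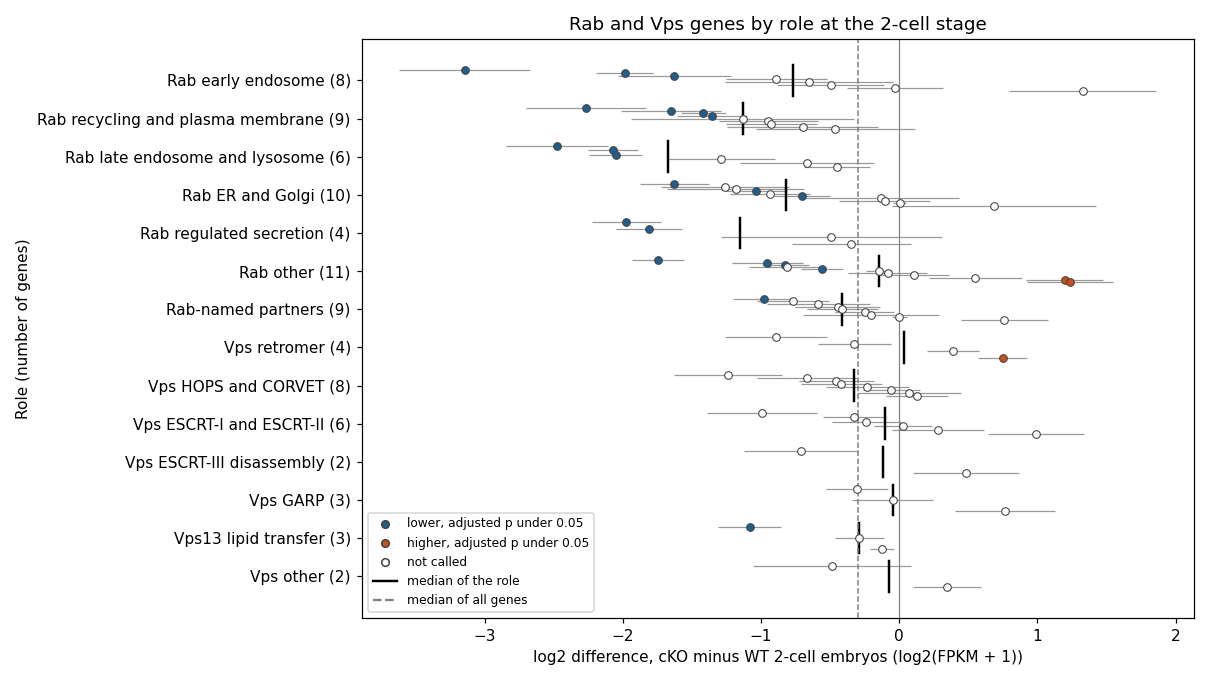
Log2 difference between cKO and WT 2-cell embryos (horizontal axis, on log2(FPKM + 1), bars are the SE) of the 85 genes, arranged by role with the number of genes of each. The medians of the 5 functional groups of Rab genes lie at -0.77 or lower, left of the median of all genes at -0.30. Those of the other Rab genes, which hold Rab20 and Rab24, and of the Rab partners lie at -0.15 and -0.41. The medians of the Vps complexes lie between -0.33 and 0.03. They turn above 0 after median-ratio scaling, apart from that of the Vps13 genes, which goes to 0.

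Among the 8 early endosome Rabs, 3 were lower in cKO 2-cell embryos and 0 higher. Over all genes 24.6% were called lower and 6.16% higher, which also stands beside the counts of the other roles below. With group weights 2 early endosome Rabs, 1 of recycling and the plasma membrane and 2 of late endosomes and lysosomes stayed lower. None of the endoplasmic reticulum and Golgi or of regulated secretion did. Median-ratio scaling left 2, 4, 3, 1 and 2 lower in these 5 groups, in this order. Rab4a, the Rab of rapid recycling from early endosomes, stood at 26.1 and 30.3 FPKM in WT and at 4.43 and 1 FPKM in cKO 2-cell embryos. The groups did not overlap and cKO replicate 2 lay at the floor, with means 10.4-fold apart (log2 difference -3.14 ± 0.47, adjusted p = 0.00616). Rab22a, which links early to recycling endosomes, stood at 34.8 and 31.1 FPKM in WT and at 8.58 and 6.64 FPKM in cKO, 4.33-fold apart (-1.99 ± 0.21, adjusted p = 0.00237). Rab21, a Rab of integrin traffic, was 3.15-fold lower (-1.63 ± 0.41, adjusted p = 0.0284). The 3 Rab5 genes, which drive the fusion of early endosomes, did not pass the test and did not lie to the same side. Rab5a stood at 37.4 and 65.8 FPKM in WT and at 205 and 77.5 FPKM in cKO, and all cKO values were above the WT values (log2 difference 1.33 ± 0.53, adjusted p = 0.109). Rab5b stood at 24.3 and 20.7 FPKM in WT and at 16.9 and 7.95 FPKM in cKO (-0.89), and Rab5c had overlapping values (-0.50). Rab5a shares 7.06% of its stretches with another annotated transcript. Rab4b, at 1 to 2.23 FPKM, and Rab31, at 1 to 3.23 FPKM, were near the floor. Rab4b shares 80.3% of its stretches with Mia1, so its level is uncertain.

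Of the 9 Rabs of recycling and delivery to the plasma membrane, 4 were lower and 0 higher. Rab11a stood at 143 and 134 FPKM in WT and at 51.5 and 50.7 FPKM in cKO 2-cell embryos, and the replicates of each group lay close together (log2 difference -1.42 ± 0.16, adjusted p = 0.00300). Rab14 stood at 91.9 and 107 FPKM in WT and at 45.6 and 20.9 FPKM in cKO (-1.65 ± 0.36, adjusted p = 0.0182). Rab8b, which delivers vesicles to the cell surface and cilium, was 4.96-fold lower (-2.27 ± 0.43, adjusted p = 0.0125), and Rab25, an epithelial relative of Rab11, was at the floor in both cKO libraries and at 4.61 and 3.65 FPKM in WT. The Rab8b sister Rab8a had overlapping values, at 22.8 and 31.4 FPKM in WT and at 31.3 and 3.96 FPKM in cKO. Rab10 and Rab35, which act in exocytosis and in rapid recycling and cytokinesis, had lower values in all cKO libraries but did not pass the test (-0.95 and -0.93, adjusted p = 0.0947 and 0.0820). Rab11b and Rab13, a junction Rab, had overlapping values.

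The late endosome and lysosome Rabs had the lowest median of the 5 functional groups, -1.67, with 3 of 6 lower and 0 higher. Rab20, Rab24 and Rab34, linked to phagosomes, autophagy and lysosome positioning, were counted with the remaining Rabs instead. Of these, Rab20 and Rab24 were called higher and Rab34 lower, so the 0 depends on how the lists were drawn. Rab7l1 stood at 174 and 129 FPKM in WT and at 23.6 and 28.8 FPKM in cKO 2-cell embryos, a 5.77-fold difference of means (log2 difference -2.48 ± 0.37, adjusted p = 0.00595). Rab32 and Rab38 are sisters that serve lysosome-related organelles such as melanosomes, and both were lower. Rab32 stood at 14.3 and 13.1 FPKM in WT and at 2.42 and 2.67 FPKM in cKO (-2.05 ± 0.19, adjusted p = 0.00187), and Rab38 at 41.5 and 47.6 FPKM in WT and at 10.7 and 8.95 FPKM in cKO (-2.07 ± 0.18, adjusted p = 0.00159). In both, the cKO libraries differed from each other by far less than from WT. Rab7, the most abundant zygote member, stood at 213 and 277 FPKM in WT and at 251 and 92.9 FPKM in cKO, so that the groups overlapped. It shares 5.99% of its stretches with Gm5577. Rab9, which returns receptors from late endosomes to the Golgi, stood at 71.3 and 50.5 FPKM in WT and at 45.7 and 41.6 FPKM in cKO (-0.45), and Rab12, a Rab of receptor degradation, at 19.8 and 20.4 and at 4.77 and 11.9 FPKM (-1.29, adjusted p = 0.0519).

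Among the 10 Rabs of the endoplasmic reticulum and Golgi, 3 were lower and 0 higher. Rab18, a Rab of lipid droplets and the endoplasmic reticulum, stood at 30.8 and 44.2 FPKM in WT and at 11.7 and 10.8 FPKM in cKO 2-cell embryos (log2 difference -1.63 ± 0.25, adjusted p = 0.00678). Rab2a and Rab2b were 2.14-fold and 1.66-fold lower (adjusted p = 0.0171 and 0.0458), and the call of Rab2b was lost in 13 of 17 alternatives. Rab1 had overlapping values (-0.11 ± 0.33), and Rab1b, Rab6a of the Golgi and Rab30 were not called although all their cKO values were lower. Rab33b, a Golgi and autophagy Rab, stood at 97.5 and 62.6 FPKM in WT and at 56.5 and 282 FPKM in cKO, so that cKO replicate 2 alone was high. Rab43 had overlapping values and Rab33a was at or near the floor throughout. Of the 4 Rabs of regulated secretion, Rab3d stood at 46.2 and 56.5 FPKM in WT and at 14.9 and 10.0 FPKM in cKO (-1.98 ± 0.25, adjusted p = 0.00375). Rab27a, which docks secretory granules, stood at 16.6 and 12.4 FPKM in WT and at 3.11 and 3.64 FPKM in cKO (-1.81 ± 0.24, adjusted p = 0.00434). Rab3a and Rab3b were not called, and Rab3a was at 11.1 FPKM in one cKO library and at the floor in the other.

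The remaining Rabs held both directions. Rab20 stood at 282 and 245 FPKM in WT and at 455 and 843 FPKM in cKO 2-cell embryos, higher in both cKO libraries (log2 difference 1.23 ± 0.31, adjusted p = 0.0293). It made up 11.4% and 9.96% of the summed FPKM of the 85 genes in the WT libraries and 21.1% and 38.3% in the cKO libraries. Rab24, a Rab linked to autophagy, stood at 5.19 and 8.01 FPKM in WT and at 19.5 and 13.3 FPKM in cKO (1.20 ± 0.28, adjusted p = 0.0229). Among those lower, Rab19 stood at 19.96 and 18.2 FPKM in WT and at 5.47 and 4.51 FPKM in cKO (-1.75 ± 0.19, adjusted p = 0.00253), and Rab34 at 58.0 and 41.1 and at 21.9 and 27.8 FPKM (-0.96 ± 0.26, adjusted p = 0.0353). Rab40b and Rab28 were lower at levels under 6 FPKM. Rab39 and Rab40c, which like Rab34 had left the floor, did not pass the test: Rab39 stood at 15.0 and 29.8 FPKM in WT and at 33.0 and 30.1 FPKM in cKO, and Rab40c at 24.3 and 21.1 and at 29.4 and 20.4 FPKM. Rab23, a regulator of Hedgehog signalling, Rab42-ps and Rab15 were not called. Of the 9 Rab partners 1 was called, Rab3il1, an exchange factor for Rab8, which stood at 16.1 and 14.9 FPKM in WT and at 7.37 FPKM in both cKO libraries (-0.98 ± 0.22, adjusted p = 0.0210). Its relative Rab3ip and the Rab11fip and Rab3gap genes were not called.

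The Vps complexes showed few calls at this stage. Of the 4 retromer genes, Vps35, the scaffold of the complex, stood at 28.6 and 25.6 FPKM in WT and at 44.2 and 48.1 FPKM in cKO 2-cell embryos, higher in both cKO libraries (log2 difference 0.75 ± 0.18, adjusted p = 0.0232). Vps26b was higher in both cKO libraries without passing the test (0.39), Vps26a had overlapping values (-0.33), and Vps29 stood at 114 and 93.9 FPKM in WT and at 37.8 and 81.0 FPKM in cKO (-0.89). Vps29 shares 10.3% of its stretches with other transcripts. In the retromer, Vps35 lay on the other side of WT from Vps29. Of the 8 genes listed under HOPS and CORVET 0 were called. In 3 of them (Vps41, Vps11 and Vps33b) both cKO values lay below both WT values, where 43.4% of all genes lay so. Vps33b was listed there as a relative of Vps33a, although its protein acts in a separate complex. Of the 6 ESCRT-I and ESCRT-II genes 0 were called, and the greatest differences went opposite ways. Vps36, of ESCRT-II, stood at 6.06 and 3.67 FPKM in WT and at 3.15 and 1 FPKM in cKO (-0.995 ± 0.399, adjusted p = 0.111), and Vps25, of the same complex, at 17.5 and 20.4 FPKM in WT and at 47.0 and 31.5 FPKM in cKO (0.99 ± 0.35, adjusted p = 0.0767). The ATPases Vps4a and Vps4b, which take ESCRT-III apart, and the GARP genes Vps52, Vps53 and Vps54 were not called, nor were Vps45, a partner of SNARE proteins, and Vps72. Vps13a, a lipid transfer protein at membrane contacts, was the 1 Vps gene called lower, at 5.80 and 6.15 FPKM in WT and at 2.76 and 1.88 FPKM in cKO (-1.08 ± 0.23, adjusted p = 0.0169). Its relatives Vps13b and Vps13d were not called.

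The level in zygotes was set beside the difference at the 2-cell stage. Zygote levels do not enter that difference, but the zygote libraries enter the spread behind its test, so that class and call are not independent, and without any one zygote library 16 or 17 members were called lower. Of the 18 members with a mean of at least 50 FPKM in WT zygotes, 8 were called lower in cKO 2-cell embryos and 1 higher, with a median log2 difference of -0.94. Among all 1786 genes in this class 32.0% were called lower and 10.6% higher, with a median of -0.54. The 8 genes were Rab2a, Rab4a, Rab11a, Rab14, Rab18, Rab21, Rab32 and Rab38, and the one higher was Vps35. Of the 12 members at the floor in all 4 zygote libraries, 3 (Rab19, Rab34 and Rab40b) were called lower and 0 higher, with a median of -0.14. Among all 3770 such genes 25.2% were called lower and 4.67% higher, with a median of -0.21. Lower transcripts in cKO 2-cell embryos thus included both abundant zygote transcripts and transcripts that had been at the floor in zygotes.

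From cKO zygotes to cKO 2-cell embryos, 29 members were called lower and 23 higher, where 27.1% and 24.6% of all genes were. The stages did not overlap for 43 members lower and 29 higher in cKO, against 35.5% and 32.3% of all genes. The libraries of these comparisons are shared with those above, so that the values are set side by side without a further test. Rab32 went from 68.9 and 57.2 FPKM to 2.42 and 2.67 FPKM in cKO (log2 difference -4.17 ± 0.19), and from 58.0 and 52.1 to 14.3 and 13.1 FPKM in WT (-1.93 ± 0.19). Rab4a changed by -3.95 ± 0.47 in cKO, while its difference of -1.14 ± 0.47 in WT did not pass the test. Rab38, Rab14, Rab18 and Rab11a fell in both genotypes, with log2 differences of -3.41, -2.92, -2.71 and -2.41 in cKO and of -1.33, -1.36, -1.16 and -0.92 in WT. Rab22a, Rab27a, Rab3d, Rab21 and Rab8b were called lower in cKO and had log2 differences between -0.94 and 0.24 in WT, none of which passed the test. Among those that rose, Rab20 changed by 8.17 ± 0.31 in cKO and 7.04 ± 0.31 in WT, Rab5a by 4.20 ± 0.53 and 3.02 ± 0.53, Rab24 by 3.10 ± 0.28 and 1.68 ± 0.28, and Rab39 by 4.02 ± 0.34 and 3.47 ± 0.34. Rab7l1 rose by 2.02 ± 0.37 in cKO and by 4.91 ± 0.37 in WT, and Rab19 by 1.58 ± 0.19 and 3.33 ± 0.19. Rab3gap1 fell by 3.53 ± 0.21 in cKO and by 3.44 ± 0.21 in WT. After sum scaling the share of lower among the members' calls in cKO was 66.7%, against 55.8% as deposited, and group weights gave 19 lower and 17 higher. Without either cKO zygote library 13 members were called higher.

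**Figure D4:**
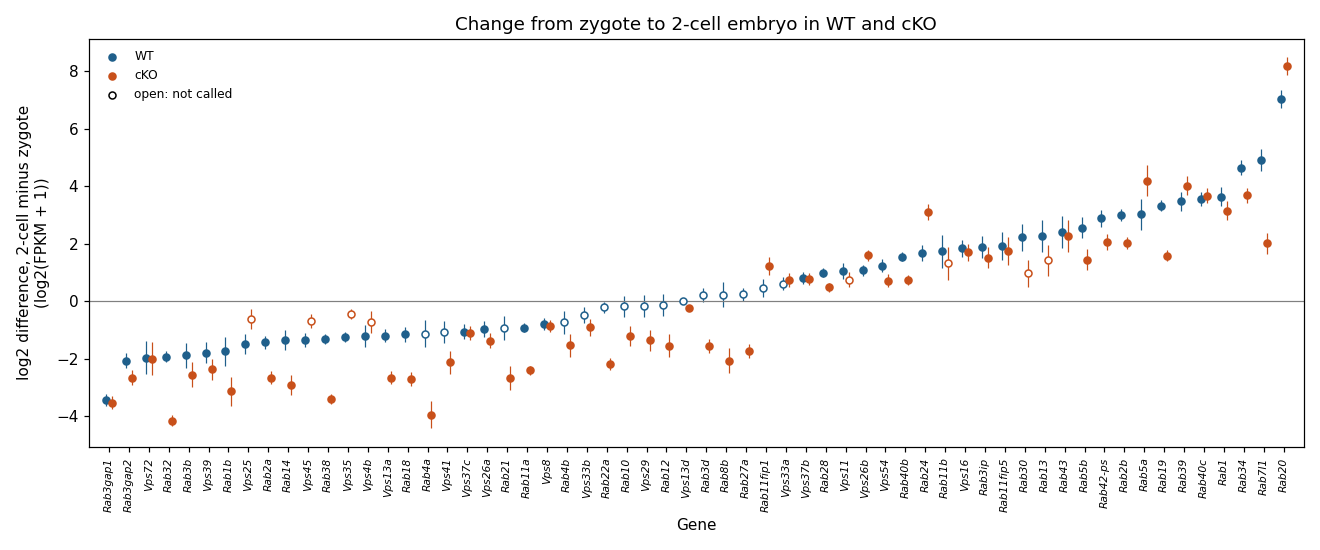
Log2 difference between 2-cell embryos and zygotes (vertical axis, on log2(FPKM + 1), bars are the SE) in WT and cKO for the 60 genes called in either genotype, ordered by the WT value, with open circles for values that did not pass the test. Rab20 has the greatest rise in both genotypes, and Rab32, Rab38, Rab14 and Rab18 lie lower in cKO than in WT.

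The interaction of genotype and stage, which asks whether the difference between cKO and WT changed from zygotes to 2-cell embryos, passed the test for 11 members, where 11.8% of all genes passed. All 11 had a lower value in cKO relative to WT at the later stage. The direction was not counted over all genes for this term. Of all genes called between cKO and WT 2-cell embryos, 80.0% were lower, so a lean to the lower side is not particular to the members. They were Rab4a and Rab22a of early endosomes, Rab11a of recycling, Rab7l1, Rab32 and Rab38 of late endosomes and lysosomes, Rab18, Rab3d, Rab27a, Rab19 and Vps13a, with values between -2.90 for Rab7l1 and -1.47 for Vps13a. Without any one of the 4 zygote libraries 0 members passed, while without cKO 2-cell replicate 1 there were 29 and without replicate 2 there were 19. Rab20, Rab24 and Vps35, which were higher in cKO 2-cell embryos, had interaction values of 1.13, 1.42 and 0.80 that did not pass (adjusted p = 0.146, 0.0689 and 0.0881).

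Other genes of the pathway, listed by function rather than by name, were counted beside the members. Of 100 such genes 91 were in the table, and 23 were lower and 10 higher in cKO than in WT 2-cell embryos, where 24.6% and 6.16% of all genes were, so that the share called lower was near that of all genes. Of 43 exchange factors and GTPase-activating proteins of Rabs, 15 were lower and 3 higher, with a median log2 difference of -0.53. Of 15 endosome effectors and subunits of the endosomal lipid kinase, 5 were lower and 1 was higher. The lower ones were Eea1, the Rab5 effector that tethers early endosomes, Rilp, Vipar, and the kinase subunits Becn1 and Uvrag. The higher one was Pik3c3, the catalytic subunit of that kinase, so that the kinase genes lay on both sides. Of 19 ESCRT genes without a Vps name 3 were lower and 2 higher. Of the 6 sorting nexins that work with retromer 0 were lower and 4 higher, namely Snx3, Snx5, Snx6 and Snx27, with a median of 1.04. None of the 8 genes that prenylate Rabs or extract them from membranes was called, with a median of 0.27. In zygotes 0 of the 91 genes were called.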

How the data were processed

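RNA was measured in 8 libraries, 2 each of WT and cKO zygotes and 2-cell embryos. The authors trimmed Smart-seq2 reads to 50 bp, mapped them to mm9 with TopHat2 2.1.1 and computed FPKM with Cufflinks 2.2.1, as the methods and the submitters' processing notes give it. The deposited FPKM values had been floored at 1 by the authors, who kept genes above 1 in at least 1 library. The gene annotation is not given in the sources used here. ChIP-seq samples were not analysed here. Groups came from the sample labels, and 0 columns of per-sample values were left unmapped.

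The members and lists were chosen with earlier results of these data known. Values were analysed as log2(FPKM + 1) with limma 3.58.1 in R 4.3.3 (4 group means, a trend in the prior, 4 residual degrees of freedom) with Benjamini-Hochberg adjustment over 14392 genes within a comparison, at 0.05. The procedure was tested on simulated data, in which a spread that differed between groups, as it does here, led to more calls of unchanged genes than the adjusted p allows. The fold rule was a ratio of group means above 3. No counts exist, so depth is unknown and precision rests on 2 libraries per group. Named genes were, per comparison and direction, up to 8 called members with the largest difference and no overlap of libraries, 3 per direction in zygotes, and the members of the role lists. Alternatives covered scaling, pseudocount, filter, samples, weights, prior trend, replicate block, fold threshold and left-out libraries. The crossed replicate block was chosen after seeing the data. Coordinates are from GENCODE M1 on mm9, which held 83 members, and shared stretches are 50-base windows of its protein-coding transcripts. Promoters are from RefSeq (GRCm38.p6), 2 of 68 under a newer symbol. Rab4a and Rab38 have no entry there. Tables were joined with Python 3.11.15 and pandas 2.3.3.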

Additional observations from a re-analysis of the deposited data

Results flagged for a closer look

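For 11 members the difference between cKO and WT was not the same in zygotes and in 2-cell embryos by the limma interaction term. The values, the log2 difference at the 2-cell stage minus that in zygotes, were -2.90 for Rab7l1, -2.81 for Rab4a, -2.24 for Rab32, -2.08 for Rab38, -1.97 for Rab27a, -1.96 for Rab22a, -1.77 for Rab3d, -1.75 for Rab19, -1.55 for Rab18, -1.48 for Rab11a and -1.47 for Vps13a. The adjusted p lay between 0.0107 for Rab32 and 0.0475 for Rab4a. In every case both cKO 2-cell libraries lay below both WT 2-cell libraries. With groups weighted by their spread 5 of them kept the call, Rab11a, Rab19, Rab22a, Rab32 and Rab38. A share of 11.8% of all genes passed the same test, and their directions were not counted.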

How the results depend on the processing

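Of the 24 members called between cKO and WT 2-cell embryos, none changed sign among the called values under the alternatives, and Rab11a, Rab19, Rab22a, Rab32 and Rab38 kept the call in all fits but the one on 4 libraries. That fit gave 0 lower and 0 higher, and group weights 6 and 0. The call was lost in 13 of 17 alternatives for Rab2b, 11 of 16 for Rab28, and 10 of 17 for Rab21 and Rab34. For Rab20 and Rab24 it was lost in 8 of 17 each. The count of higher members was 6 after median-ratio scaling and 1 after sum scaling. Leaving out 1 library gave 13 to 38 lower and 0 to 7 higher in this comparison. The median log2 difference of the 85 genes, -0.49, was -0.14 after median-ratio scaling and -0.70 to -0.24 with 1 library left out. By the fold rule a 2-fold threshold gave 25 lower and 6 higher, median-ratio scaling 4 higher, and left-out libraries 11 to 19 lower and 0 to 3 higher. In zygotes a 2-fold threshold gave 1 higher. From WT zygotes to 2-cell embryos, leaving out 1 library gave 10 to 22 lower and 17 to 29 higher, with 10 lower without WT zygote replicate 1 and 13 and 12 without WT 2-cell replicates 1 and 2. From cKO zygotes to 2-cell embryos, group weights gave 19 lower, sum scaling and the 4-library fit 15 higher each, and left-out libraries 20 to 38 lower and 13 to 24 higher, with 13 higher without either cKO zygote library. The interaction was called for 7 members after median-ratio scaling, 5 with group weights and 0 to 29 with 1 library left out. The cause of these shifts was not tested, except that left-out libraries mean fewer samples.

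The labels number the replicates alike in each group but describe no pairing. Deviations of same-numbered libraries correlated at 0.497 between zygote groups and -0.239 between 2-cell groups. With the replicate block the 2-cell counts were 21 lower and 3 higher, and the interaction 8. With the crossed replicate block they were 20, 4 and 9. Precision is limited by 2 libraries per group, an unknown depth, and the floor at 1, below which levels cannot be ordered.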
